A study of Bubalus bubalis with 12 samples.

Results

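The ruminal wall transcripts of the antigen processing and presentation machinery were followed in 12 Italian Mediterranean dairy buffaloes. The genes were taken by symbol, *B2M*, *TAP1*, *TAP2*, *TAPBP*, *PSMB8*, *PSMB9*, *NLRC5*, *CIITA* and *CD74*, and 8 of these 9 symbols were matched among the 34037 genes of the deposited table. *B2M*, the light chain shared by all class I molecules, was not analysed here, and neither were the heavy chains of class I or the chains of class II, for which no gene could be taken by name. The animals, 8.2 ± 0.6 years old, were kept for 14 days of adaptation and 60 days of trial in the same herd and were slaughtered together. The control group of 6 animals was fed a total mixed ration (TMR), and the treated group of 6 animals was fed TMR in which fresh ryegrass made up about 30% of the diet. Among other differences, the treated ration also held more forage relative to concentrate, less corn silage and alfalfa hay, no soybean meal and more fat. The green feed and these differences cannot be told apart. The paper describes the rations as matched in nitrogen and energy. Each animal gave 1 library of total RNA from a biopsy of the ruminal wall, and the replicate is the animal.

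Cells display fragments of their own proteins on class I molecules. The fragments are made by the proteasome, in which the interferon-induced subunits *PSMB8* and *PSMB9* can take the place of constitutive ones, are pumped into the endoplasmic reticulum by the *TAP1* and *TAP2* transporter and are loaded with the help of *TAPBP* (tapasin). Class II molecules, which are mostly made by professional antigen presenting cells, carry fragments of engulfed proteins and travel with the invariant chain *CD74*. *NLRC5* and *CIITA* are the transactivators of the class I and of the class II genes, respectively. The rumen is lined by a stratified squamous epithelium that is in contact with a dense microbial community.

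The libraries held between 10531245 and 12947982 counted fragments, and the 8 genes rested on between 17 and 1036 reads per animal. Control replicate 6 and treated replicate 6 stood apart from the others: the median Pearson r of their log2 values with the remaining animals was 0.925 and 0.923, against 0.937 to 0.960 for the other 10. The epithelial markers were high in every library, with a summed level of 2481 to 4870 FPKM (fragments per unit of gene length and of library depth, so a level per length). *KRT5*, a keratin of basal epithelial cells, was at 451 FPKM in control replicate 6 and 498 FPKM in treated replicate 6, against a median of 1607 FPKM over all 12 animals. *DSG3*, a desmosomal cadherin, was instead at 970.9 FPKM and 843.5 FPKM in them, against a median of 623.9 FPKM, and the summed epithelial level was the lowest of each group, at 2637 FPKM and 2481 FPKM.

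Set side by side per length, the genes spanned a wide range of levels. *CD74* was the highest, with a median of 41.9 FPKM over the 12 animals, and lay above *TAPBP* in all 12. *TAPBP* followed with 10.9 FPKM, *TAP2* with 8.71 FPKM and *TAP1* with 4.85 FPKM. The immunoproteasome subunits came next, *PSMB8* with 3.92 FPKM and *PSMB9* with 2.54 FPKM. Both transactivators closed the order, *NLRC5* with 1.28 FPKM and *CIITA* with 0.917 FPKM. *TAPBP* exceeded *TAP2* in 11 animals, *TAP2* exceeded *TAP1* in 10, *TAP1* exceeded *PSMB8* in 9, *PSMB8* exceeded *PSMB9* in 10, *PSMB9* exceeded *NLRC5* in 12 and *NLRC5* exceeded *CIITA* in 10 of 12. Thus only the steps below *CD74* and between *PSMB9* and *NLRC5* held in every animal. Among animals, the highest level of *CD74* was 2.22 times the lowest, and that of *CIITA* was 4.68 times the lowest.

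**Figure D1:**
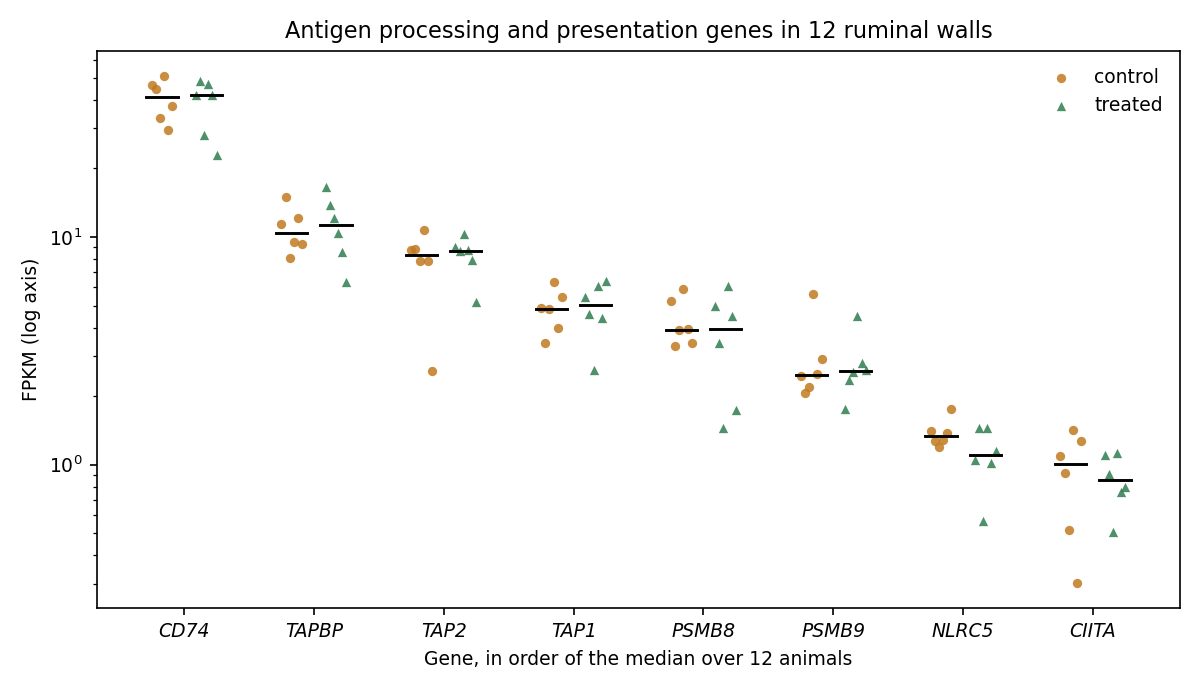
FPKM of the 8 genes (log axis) in the 6 control (circles) and 6 treated (triangles) animals, with the median of each group as a bar and the animals drawn from left to right by replicate number. The groups overlapped for every gene, and *CD74* lay above all other genes in each animal.

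The effect of green feed was tested with limma on log2(FPKM + 0.01), a scale on which changes of low genes are somewhat understated. No member passed the threshold. Of 8 tested members, 4 had a higher and 4 a lower mean in treated animals, 0 were below a p-value of 0.05 after Benjamini-Hochberg adjustment over all genes tested, 0 were below a nominal 0.05 and 0 had groups without overlap. Over the 12642 genes tested, limma called 0 (0%) after adjustment, with a smallest adjusted p of 0.9997. At the nominal threshold it called 157 genes (1.24%), 100 of them (0.791%) higher and 57 (0.451%) lower in treated animals, and 7 genes (0.0554%) had groups without overlap. Were no gene to differ, a nominal threshold of 0.05 would on average pass a share of 0.05 of genes, more than was called. With voom 0 genes passed after adjustment and 144 at the nominal threshold, and the nominal count was 325 in limma without treated replicate 6. The median log2 fold change was -0.03 over the members and 0.01 over all genes tested, and the members' standard errors lay between 0.20 and 0.37.

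Among the class I loading genes, *TAP1* encodes one chain of the peptide pump. *TAP1* ranged from 3.41 to 6.32 FPKM in control animals, with a median of 4.85, and from 2.61 to 6.41 FPKM in treated animals, with a median of 5.02. The highest animals of both groups were almost level, and treated replicate 3 was the lowest of all 12. Its log2 fold change was 0.01 ± 0.22 (SE), with a 95% interval of -0.47 to 0.48 and an exact permutation p of 0.974 (n = 6 per group). *TAP2*, its partner, ranged from 2.58 to 10.7 FPKM in control animals, with a median of 8.30, and from 5.17 to 10.3 FPKM in treated animals, with a median of 8.71. The lowest animal of each group was replicate 6, one of the libraries that stood apart. The log2 fold change of *TAP2* was 0.19 ± 0.30, with an interval of -0.45 to 0.83 and an exact permutation p of 0.680 (n = 6 per group), and it was -0.10 without control replicate 6.

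The balance of both transporter chains differed in the same libraries. The ratio of *TAP1* to *TAP2* was 2.11 in control replicate 6 and 1.24 in treated replicate 6, and between 0.255 and 0.697 in the other 10 animals. It was therefore above 1 in these animals alone, in which *TAP2* was low and *TAP1* was not. In the RefSeq annotation of another buffalo build, NDDB_SH_1, *PSMB9*, *TAP1*, *PSMB8* and *TAP2* are consecutive protein-coding genes of chromosome 2. The diet difference of the ratio had an exact permutation p of 0.716 (n = 6 per group).

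*TAPBP*, which bridges the transporter and the empty class I molecule, ranged from 8.12 to 14.99 FPKM in control animals, with a median of 10.5, and from 6.37 to 16.5 FPKM in treated animals, with a median of 11.3. The treated group held both the highest and the lowest of the 12 animals, replicates 1 and 6. The log2 fold change was 0.01 ± 0.22, with an interval of -0.46 to 0.49 and an exact permutation p of 0.961 (n = 6 per group).

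The immunoproteasome subunit *PSMB8* ranged from 3.32 to 5.90 FPKM in control animals, with a median of 3.92, and from 1.45 to 6.10 FPKM in treated animals, with a median of 3.96. The medians were nearly equal, and only treated replicates 3 and 6, at 1.45 and 1.74 FPKM, lay below the control group. For *PSMB8* the log2 fold change was -0.36 ± 0.33, with an interval of -1.08 to 0.35 and an exact permutation p of 0.368 (n = 6 per group). Without treated replicate 3 it was -0.13 and without treated replicate 6 it was -0.19. *PSMB9* ranged from 2.07 to 5.63 FPKM in control animals, with a median of 2.48, and from 1.75 to 4.49 FPKM in treated animals, with a median of 2.59. The highest animal of each group was replicate 4, and *PSMB9* rested on only 17 to 58 reads per animal. Its log2 fold change was -0.07 ± 0.27, with an interval of -0.64 to 0.51 and an exact permutation p of 0.797 (n = 6 per group), and it was 0.14 without control replicate 4.

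The immunoproteasome subunits lay far below the constitutive subunits whose place they take in the assembled particle. *PSMB8* was at between 3.90% and 7.24% of the level of *PSMB5* in control animals, with a median of 5.36%, and at between 1.74% and 7.84% in treated animals, with a median of 5.07%. *PSMB9* was at between 2.61% and 6.02% of the level of *PSMB6* in control animals, with a median of 3.30%, and at between 1.95% and 4.88% in treated animals, with a median of 3.28%. *PSMB10*, the remaining interferon-induced subunit, was at between 9.81% and 16.7% of the level of *PSMB7* in control animals, with a median of 14.9%, and at between 9.41% and 16.0% in treated animals, with a median of 12.4%. The ratio of *PSMB10* was thus above those of *PSMB8* and *PSMB9* in both groups, and the groups overlapped for each of the 3 ratios. In exact permutation tests (n = 6 per group) the diet p-values were 0.3896, 0.472 and 0.444. Adjusted over the 5 ratios tested, these and those of *TAP1* to *TAP2* and *CIITA* to *NLRC5* lay between 0.590 and 0.716.

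**Figure D2:**
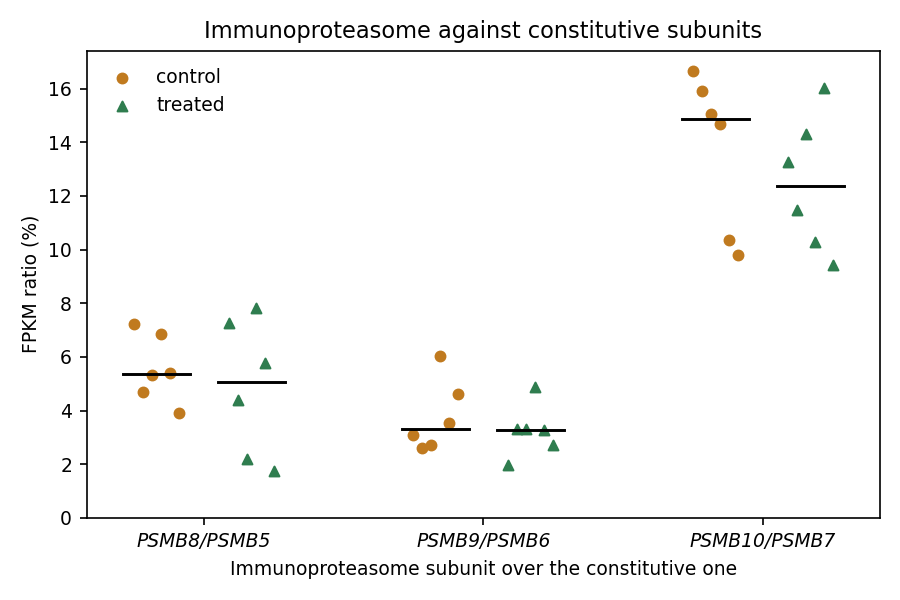
FPKM of the immunoproteasome subunits *PSMB8*, *PSMB9* and *PSMB10* as a percentage of *PSMB5*, *PSMB6* and *PSMB7* in each control (circles) and treated (triangles) animal, with group medians as bars. All values lay below 17%, and the groups overlapped for each pair.

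The transactivator of class I genes, *NLRC5*, had the lowest p-values of the members. It ranged from 1.202 to 1.76 FPKM in control animals, with a median of 1.33, and from 0.565 to 1.45 FPKM in treated animals, with a median of 1.10. Of the treated animals, replicates 1, 3, 5 and 6 lay below all control animals, and replicates 2 and 4 lay within the control range. For *NLRC5* the log2 fold change was -0.36 ± 0.24, with an interval of -0.88 to 0.15, a nominal limma p of 0.153 and an exact permutation p of 0.0952 (n = 6 per group). Without treated replicate 3, the lowest animal, it was -0.18.

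Of the class II genes, *CIITA* ranged from 0.304 to 1.42 FPKM in control animals, with a median of 1.01, and from 0.506 to 1.12 FPKM in treated animals, with a median of 0.856. The treated animals all fell within the range of the control group. On the log2 scale the fold change was 0.05 ± 0.37, with an interval of -0.76 to 0.85 and an exact permutation p of 0.920 (n = 6 per group), and it was -0.23 without control replicate 5, the lowest animal. *CD74* ranged from 29.6 to 50.9 FPKM in control animals, with a median of 41.2, and from 23.0 to 48.3 FPKM in treated animals, with a median of 41.9. Treated replicates 6 and 3 were the lowest of all 12, and the other 4 treated animals lay within the control range. The log2 fold change was -0.10 ± 0.20, the smallest standard error among the members, with an interval of -0.53 to 0.33 and an exact permutation p of 0.647 (n = 6 per group). The intervals of *CD74*, *TAP1* and *TAPBP* lay within about 0.5 of 0 on the log2 scale, while those of *PSMB8*, *CIITA*, *NLRC5* and *TAP2* reached beyond 0.8.

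The other genes of the pathway were followed in 3 lists, described by their counts. Of the 15 class I partners, which are proteasome subunits and activators, trimming peptidases and chaperones, all 15 were tested. None was higher and 1 was lower in treated animals at the nominal threshold, with a median log2 fold change of 0.01. The lower gene was *CANX* (calnexin), a chaperone that holds newly made heavy chains. *CANX* ranged from 73.6 to 100.3 FPKM in control animals, with a median of 85.6, and from 65.7 to 87.4 FPKM in treated animals, with a median of 68.9. The groups overlapped in part. The log2 fold change of *CANX* was -0.24 ± 0.11, with a nominal limma p of 0.0462, an adjusted p of 0.9997 and an exact permutation p of 0.0390 (n = 6 per group). Without both libraries that stood apart the nominal limma p of *CANX* was 0.110, and *CALR* passed in its place with 0.0496. The nominal limma p of *CANX* was between 0.0564 and 0.106 without any one of control replicates 1, 2, 4, 5 and 6 or treated replicates 3, 4, 5 and 6. The partners with the highest mean level, *HSPA5* (142.7 FPKM), *CALR* (128.3 FPKM) and *PDIA3* (122.9 FPKM), are chaperones of the endoplasmic reticulum that serve many other proteins.

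Of the 14 class II partners, 9 were above 0 in some animal and 7 were tested. At the nominal threshold 0 of them passed in either direction, with a median log2 fold change of -0.07. The highest were *CTSB* (157.2 FPKM), a lysosomal protease, *IFI30* (49.99 FPKM), a lysosomal thiol reductase, and *LGMN* (34.4 FPKM), an asparagine-specific protease. Of the 19 regulators, 17 were tested and 0 passed the nominal threshold, with a median log2 fold change of 0.02. The highest were *IFNGR2* (49.4 FPKM), a chain of the interferon gamma receptor, and *JAK1* (49.1 FPKM), a kinase that relays its signal. *IFNG*, which encodes interferon gamma itself, had 1 read in 1 control animal and 0 in the other 11, so that its level could not be compared at this depth.

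**Figure D3:**
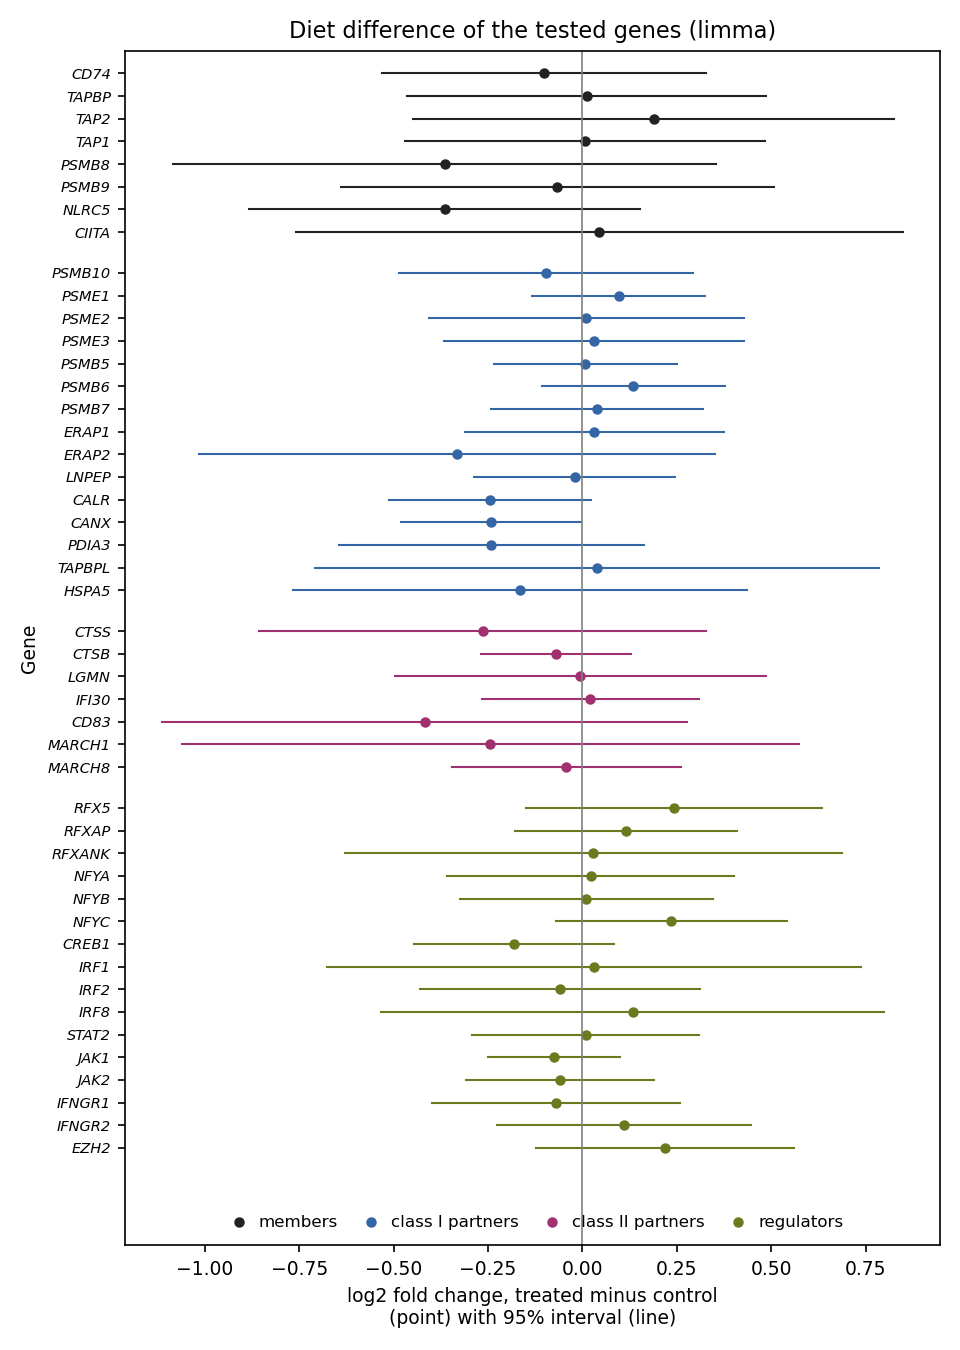
The log2 fold change of each tested gene, treated minus control (points), with its 95% interval from limma (lines), for the 8 members and the class I partners, class II partners and 16 of the 17 tested regulators. All member intervals span 0, and *CANX* is the one gene whose interval lies below it.

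The members varied among the animals only in part together. Of the 28 pairs of members, 22 had a positive Pearson r across the 12 animals, with a median r of 0.33 and a range of -0.45 to 0.78. By permutation tests 3 pairs were below a nominal 0.05 and 0 after adjustment over the 28 pairs. The closest pair was *CD74* and *PSMB8*, with r = 0.78 (permutation p = 0.00375, adjusted p = 0.105) and Spearman's rho = 0.65 (permutation p = 0.0255, adjusted p = 0.269). It rested in part on treated replicates 3 and 6, in which both genes were low, as r was 0.42 without the 2 animals farthest from the median of *CD74*. *CD74* and its transactivator *CIITA* had r = 0.65 (permutation p = 0.0205, adjusted p = 0.288) and rho = 0.64 (permutation p = 0.0288, adjusted p = 0.269), and r = 0.83 without the 2 farthest animals. Both transporter chains, *TAP1* and *TAP2*, had r = -0.31.

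Leaving out animals changed these calls. Without control replicate 6 and treated replicate 6, 2 pairs passed, *CD74* with *CIITA* at r = 0.91 (permutation, adjusted p = 0.0157, 10 animals) and *TAP1* with *PSMB8* at r = 0.92 (permutation, adjusted p = 0.00420). The same pairs passed without treated replicate 6 alone, with adjusted permutation p-values of 0.0332 and 0.0316. Without treated replicate 2, *CD74* with *PSMB8* passed instead, with an adjusted permutation p of 0.0428. Over all 12 animals *TAP1* and *PSMB8* had r = 0.49 (permutation p = 0.0986, adjusted p = 0.374). Without the 2 animals farthest from the median of *TAP1* their r was -0.07.

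**Figure D4:**
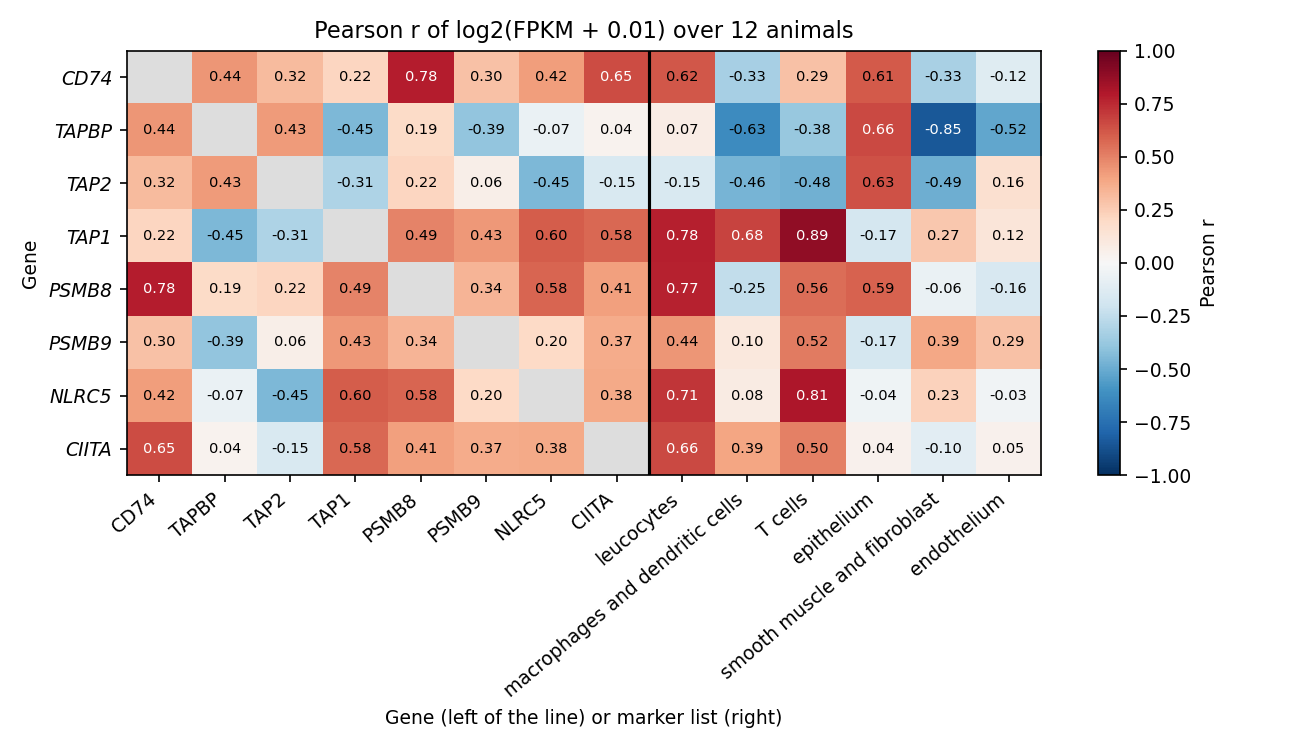
Pearson r of log2(FPKM + 0.01) over the 12 animals between each pair of members (left of the line) and between each member and the summed level of each marker list (right). *TAPBP* and the smooth muscle and fibroblast markers have the lowest r (-0.85), and *TAP1* and the T cell markers have the highest (0.89).

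The biopsies hold a mixture of cells, and in such bulk samples fewer cells of a type and less RNA per cell cannot be told apart. The leucocyte markers (5 of 5 genes present) summed to between 23.4 and 45.3 FPKM in control animals and between 17.02 and 45.4 FPKM in treated animals, of which treated replicate 3 was the lowest. The T cell markers (5 of 5) summed to between 11.9 and 26.5 FPKM and between 8.48 and 24.6 FPKM, again with treated replicate 3 as the lowest. The macrophage and dendritic cell markers (6 of 7) summed to between 17.01 and 29.1 FPKM and between 20.6 and 49.2 FPKM. The B cell markers were near 0, with sums of 0.0640 to 0.635 FPKM, *CD79B* at 0 in every animal and *MS4A1* at a median of 0.

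The structural lists differed in level. The smooth muscle and fibroblast markers (9 of 9) summed to between 52.3 and 278.4 FPKM in control animals and between 20.7 and 178.7 FPKM in treated animals. The endothelial markers (4 of 4) summed to between 8.10 and 27.0 FPKM and between 5.42 and 28.4 FPKM. For all 7 lists the groups overlapped, and the exact permutation p-values of the diet difference lay between 0.271 and 0.974 (n = 6 per group).

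Of the 48 pairs of a member and a marker list, 5 passed in permutation tests adjusted over all 48. *TAPBP* was lower where the smooth muscle and fibroblast markers were higher. Its r was -0.85 (permutation p = 0.00048, adjusted p = 0.0115) and its rho was -0.88 (permutation p = 0.00045, adjusted p = 0.0216). Without the 2 animals farthest from the median of the marker list r was -0.77. Within the control and within the treated animals r was -0.90 in both, and with each animal left out in turn r stayed between -0.90 and -0.80 and the adjusted permutation p below 0.05 in all 12 cases. With the epithelial markers r was 0.66 (adjusted permutation p = 0.108). It was -0.63 with the macrophage and dendritic cell markers (adjusted permutation p = 0.121). It was -0.52 with the endothelial markers (adjusted permutation p = 0.243), and none of these passed. Without treated replicate 5 the epithelial pair passed (r = 0.85, adjusted permutation p = 0.0160). Without treated replicate 1 the macrophage and dendritic cell pair did (r = -0.80, adjusted permutation p = 0.0468).

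The other 4 pairs that passed joined *TAP1*, *PSMB8* and *NLRC5* to leucocyte or T cell markers. *TAP1* followed the T cell markers with r = 0.89 (permutation p = 0.00021, adjusted p = 0.0101) and rho = 0.73 (permutation p = 0.00803, adjusted p = 0.0754). *TAP1* and the leucocyte markers had r = 0.78 (permutation p = 0.00366, adjusted p = 0.0396) and rho = 0.64 (permutation p = 0.0283, adjusted p = 0.136). *PSMB8* and the leucocyte markers had r = 0.77 (permutation p = 0.00412, adjusted p = 0.0396) and rho = 0.78 (permutation p = 0.00453, adjusted p = 0.0544). *NLRC5* and the T cell markers had r = 0.81 (permutation p = 0.00373, adjusted p = 0.0396) and rho = 0.73 (permutation p = 0.00943, adjusted p = 0.0754). These 4 calls thus held for r and not for rho. The remaining class I members did not pass with either list. With the leucocyte markers r was -0.15 for *TAP2*, 0.07 for *TAPBP* and 0.44 for *PSMB9*. With the T cell markers it was -0.48, -0.38 and 0.52, in the same order. *TAP1* and the macrophage and dendritic cell markers had r = 0.68 (permutation p = 0.0214, adjusted p = 0.108) and did not pass. Their rho was 0.78 (permutation p = 0.00370, adjusted p = 0.0544), above that of *TAP1* with the T cell markers. The class II genes did not pass with the leucocyte markers. *CIITA* had r = 0.66 (permutation p = 0.0183, adjusted p = 0.108) and rho = 0.80 (permutation p = 0.00247, adjusted p = 0.0544). Without control replicate 5 it passed, with r = 0.91 (adjusted permutation p = 0.00672). *CD74* had r = 0.62 (permutation p = 0.0302, adjusted p = 0.121). With the T cell markers r was 0.50 for *CIITA* and 0.29 for *CD74*.

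The 4 class I pairs leaned on treated replicate 3, in which leucocyte and T cell markers, *TAP1*, *PSMB8* and *NLRC5* were at their lowest. Without it their r was 0.77, 0.57, 0.58 and 0.53, in the order given, and the adjusted permutation p-values were 0.0851, 0.269, 0.231 and 0.282. Without the 2 animals farthest from the median of the marker list, r was 0.61, 0.65, 0.69 and 0.67. *TAP1* and the T cell markers passed in the other 11 cases with 1 animal left out. *TAP1* and the leucocyte markers also lost the call without control replicate 1, 2, 4 or 6 or treated replicate 4, *PSMB8* without control replicate 1, 2 or 4 or treated replicate 4, and *NLRC5* without control replicate 1, 3, 4 or 6 or treated replicate 4, with adjusted permutation p-values of 0.0542 to 0.127. Within the control group the r of the 4 pairs lay between 0.60 and 0.83 and within the treated group between 0.81 and 0.94. Under TMM scaling *TAPBP* with the smooth muscle and fibroblast markers and *TAP1* with the T cell markers kept the call (adjusted permutation p = 0.00672 for both), and the other 3 pairs lost it, with adjusted permutation p-values of 0.0560 for *TAP1* with leucocytes, 0.0560 for *NLRC5* with T cells and 0.0633 for *PSMB8* with leucocytes. What part the cell makeup of the biopsies had in the levels of these genes was not tested.

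**Figure D5:**
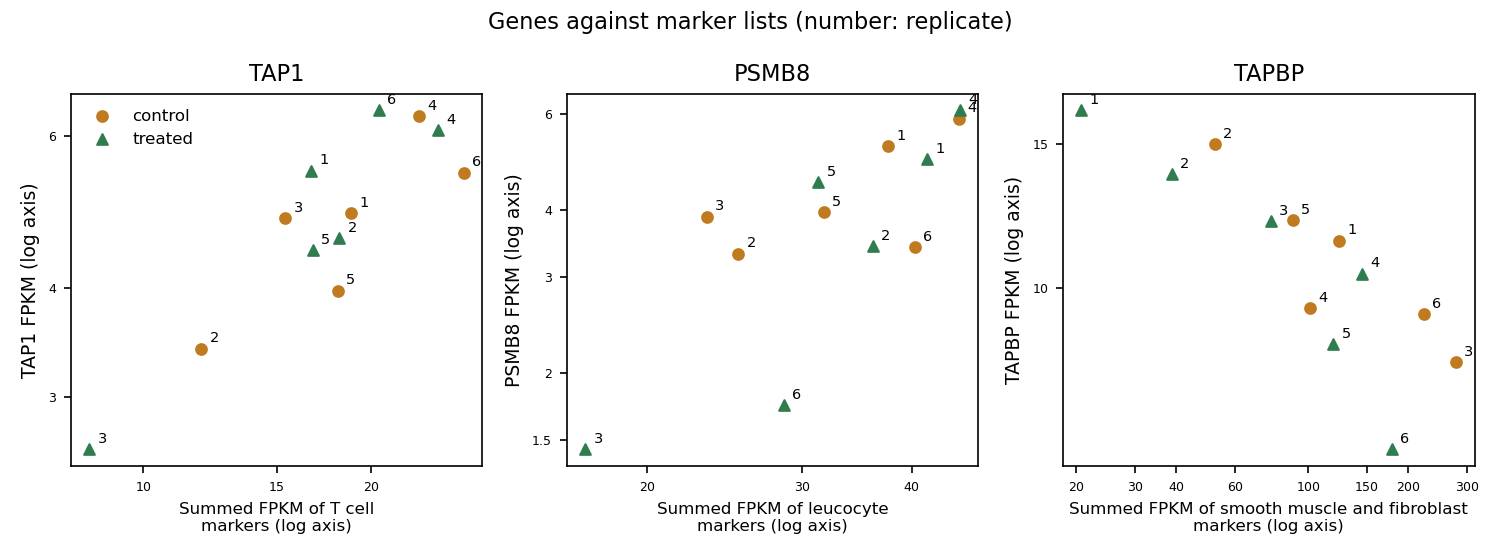
FPKM of *TAP1*, *PSMB8* and *TAPBP* (log axis) against the summed FPKM of the T cell, leucocyte and smooth muscle and fibroblast markers (log axis) in each control (circles) and treated (triangles) animal, numbered by replicate. Treated replicate 3 is lowest on both axes for *TAP1* and *PSMB8*. *TAPBP* is highest in treated replicate 1 (16.5 FPKM), which has the lowest marker sum (20.7 FPKM). It is lowest in treated replicate 6 (6.37 FPKM), at a marker sum of 178.7 FPKM, while the highest marker sum is in control replicate 3 (278.4 FPKM).

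Genes most like the mean z score of the class I members over the 12 animals were sought among 12634 tested genes, by Pearson r. The score was taken over *TAP1*, *TAP2*, *TAPBP*, *PSMB8*, *PSMB9* and *NLRC5*. Pairs of these members had r from -0.45 (*TAP2* with *NLRC5*) to 0.60 (*TAP1* with *NLRC5*), so the score averages partly opposed patterns. Most like this score were *LAPTM5* (r = 0.92), *ARHGAP45* (r = 0.90), *ETS1* (r = 0.90), *ITGB2* (r = 0.90) and *INSIG1* (r = 0.90). *LAPTM5*, a lysosomal membrane protein of blood cells, and *ITGB2*, an integrin chain of leucocytes, are also in the leucocyte marker list. Most like the mean z score of *CIITA* and *CD74* were *CNOT11* (r = 0.93), *SKA1* (r = 0.89), *KIF24* (r = 0.88), *LOC102409360* (r = 0.87) and *NRG1* (r = 0.86). These values are the highest of a search over all tested genes and are given as a description.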

How the data were processed

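Total RNA libraries (TruSeq Stranded) of 12 ruminal walls, 1 per animal, were analysed, and groups were taken from the sample labels. The authors trimmed reads with Trimmomatic 0.39 (base quality 25, length 35 bp), aligned them with STAR 2.5.2b to the build UOA_WB_1 and counted them with featureCounts 2.0.0 (mapping quality 30), versions as in the submitters' processing notes. The authors deposited FPKM values per gene, unfiltered, and the tool and gene lengths behind them are not given in the sources used here. The header holds 1 name fewer than there are columns, since the gene identifier is unnamed. Of 16 value columns, 12 were matched to animals and 4 were not used.

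Within each gene the FPKM were whole multiples of the value of 1 read (100% of values above 0, within 0.01 reads), which gave the reads behind each value. These are lower bounds for genes whose reads all share a divisor. Between 10531245 and 12947982 fragments per animal set the precision.

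In 1 animal or more, 12642 genes reached the HTSFilter threshold of the study, on reads scaled by TMM, and they were tested with limma 3.58.1 in R 4.3.3 (lmFit, eBayes with a mean-variance trend, robust off) on log2(FPKM + 0.01), treated minus control, with Benjamini-Hochberg adjustment. Single values were tested with two-sided exact permutation tests over 924 assignments, whose smallest possible p is 0.00216, and correlations with 100000 permutations. Correlations with B cell markers were left out because their levels were near 0. Python 3.11.15, numpy 2.4.6, pandas 2.3.3, scipy 1.17.1 and matplotlib 3.10.9 were used. The recovery of reads, the TMM factors and the limma fit were tested on simulated data. Pairs of members numbered 28 rather than 36 because *B2M* was not analysed here.

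All members were named, with each list gene at a nominal p below 0.05 or else the 3 with the highest mean, and the 5 genes most like each member score. Of the regulators, 1 gene that the rule names is not reported here. The members, lists and tests were chosen with earlier results of these data known, and the correlations with marker lists were added after seeing the data. All 8 members were matched by gene identifier to RefSeq's NDDB_SH_1 annotation, where the gene named *TAPBP* in the deposited table is listed as *LOC102399943*. No coordinates are given, since that build is not the authors'.

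Alternatives were other pseudocounts, filters and scalings, robust eBayes, voom on the recovered reads, a replicate block, marker scores as covariates and leaving out each animal, and, chosen after seeing the data, leaving out both libraries that stood apart.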

Additional observations from a re-analysis of the deposited data

Results flagged for a closer look

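Values of single animals that lay far from the rest of their group of 6 were sought in 38 groups of values, of which 5 held such an animal. For normally distributed values chance alone gives about 1 in 20, and whether these values are so distributed was not tested. The groups of values also share animals and genes, so the flags are not independent. Control replicate 6 was far below its group in *TAP2*, at 2.58 FPKM against 7.81 to 10.7 FPKM in the other control animals. The same animal was far above its group in *NLRC5*, at 1.76 FPKM against 1.202 to 1.41 FPKM, and in the ratio of *TAP1* to *TAP2*, at 2.11 against 0.384 to 0.614. Control replicate 4 was far above its group in *PSMB9*, at 5.63 FPKM against 2.07 to 2.92 FPKM, on 58 reads. Treated replicate 6 was far above its group in the macrophage and dendritic cell markers, at a sum of 49.2 FPKM against 20.6 to 27.6 FPKM, of which *CD207* gave 24.7 FPKM and *AIF1* 20.9 FPKM. In the same animal *CSF1R* was the lowest of all 12, at 1.83 FPKM against a median of 3.31 FPKM, and *ITGAX* (1.21 FPKM) and *FLT3* (0.299 FPKM) were below their medians of 1.46 and 0.359 FPKM. Control replicate 6 and treated replicate 6 were also the libraries with the lowest correlation with the rest.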

How the results depend on the processing

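Under all 24 alternatives 0 genes passed the adjusted threshold and 0 members passed the nominal one, the lowest nominal limma p of a member being 0.0947. The nominal count over all genes, 157, was 562 without a filter, 301 when 0.1 FPKM was required in 6 animals, 363 with the smooth muscle and fibroblast score as a covariate, 314 without both libraries that stood apart and 142 to 325 with 1 animal left out. Of 192 member values, 166 kept their direction and 26 did not. Fold changes of the other sign were -0.0168 for *CIITA* at a pseudocount of 1, then -0.0413 for *TAP2*, -0.28 for *TAPBP*, 0.0786 for *PSMB9* and -0.0294 for *CIITA* with the smooth muscle and fibroblast covariate, and -0.0391 for *TAP1* and 0.0204 for *CD74* without both libraries. With 1 animal left out the ranges were -0.19 to 0.0360 for *CD74*, -0.23 to 0.20 for *CIITA*, -0.22 to 0.14 for *PSMB9*, -0.0860 to 0.18 for *TAP1*, -0.10 to 0.32 for *TAP2* and -0.11 to 0.16 for *TAPBP*. *NLRC5* and *PSMB8* kept their direction under all 24, *NLRC5* between -0.45 and -0.18 and *PSMB8* between -0.55 and -0.13. The count of class I partners at the nominal threshold, 1, was 0 with robust eBayes and with the leucocyte covariate. It was 3 (*CANX*, *CALR* and *PDIA3*) with the smooth muscle and fibroblast covariate and 1 (*CALR* in place of *CANX*) without both libraries. With 1 animal left out it was 0 to 2, and that of regulators was 0 to 1. For *CANX* the nominal limma p was 0.00313 with the smooth muscle and fibroblast covariate and 0.0367 under TMM scaling. With robust eBayes it was 0.0511, with the leucocyte covariate 0.0587, and voom gave a nominal p of 0.0403. Pairs of members that passed numbered 2 without both libraries and 0 to 2 with 1 animal left out, and pairs with marker lists, 5, numbered 2 under TMM scaling and 1 to 7 with 1 animal left out. The cause of these shifts was not tested.

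With the replicate number as a block, 322 genes passed the nominal threshold, and 2 class I partners (*CALR* and *CANX*) and 1 class II partner (*CD83*) did. The labels do not say that the same number marks a shared animal, batch or day, and the sample titles number 7 of the 12 animals differently: treated replicates 1 to 6 are numbered 2, 4, 5, 6, 7 and 8 there, and control replicate 6 is numbered 7. Same-numbered animals had a mean correlation of deviations of 0.213, against -0.04 for the 30 other pairs, 4 of 6 pairs exceeded 0.1 and 8 of 12 animals correlated best with their own number. With 6 animals per group the standard errors of 0.20 to 0.37 on the log2 scale limit what could be told from 0, and *PSMB9*, *CIITA* and *PSMB8* rested on at most 125 reads in any animal.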
